A study of Mus musculus with 6 samples.

Results

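The constitutive proteasome genes were examined in the hearts of endotoxemic mice given recombinant human thrombomodulin (rhTM), the soluble version of a receptor that binds thrombin on endothelium, or saline. Members were all genes on the array whose symbol begins with Psma to Psmg and a number, without the immunoproteasome subunits Psmb8, Psmb9 and Psmb10. That rule found 47 genes of the 22815 with a symbol, read by 73 probes, and 46 of them were among the 14701 genes tested. Psmb11, the beta subunit of the thymus, stayed near background on every array and was not tested. The 46 tested genes were well above background on all 6 arrays. Among them Psma8 is a testis form, and Psmc3ip and Psme3ip1 share the name pattern without being subunits. Psme2 itself was not analysed here, and Psme2b, a near-identical copy of it, is reported as uncertain since its probes may read both.

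Hearts came from 3 rhTM mice and 3 saline mice, all C57BL6 males of 10 weeks, with 1 array per mouse. Every mouse was starved for 16 h, received 20 mg/kg lipopolysaccharide (LPS, bacterial endotoxin) by intraperitoneal injection and was sampled at 30 h. Doses of rhTM or saline were given at 3 and 24 h after LPS. No heart without LPS was compared, and the comparison asks how the heart's transcripts differed when rhTM was given after LPS.

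Each value is a log2 signal on a scale where 0 is the array's 75th percentile. A change is the rhTM mean minus the saline mean, with its SE from the limma fit (n = 3 and 3). Probes differ in brightness, so levels are compared between arrays and not between genes. Slide 1 carried saline 1 and 2, while slide 2, with another scan date in the file headers, carried saline 3 and all rhTM arrays. The within-slide change, rhTM minus saline 3, therefore rests on 1 saline array. The 75th percentile was 732 and 671 intensity units on slide 1 and 394 to 466 on slide 2. All 8 cardiomyocyte markers were well above background on every array. In whole hearts, fewer cells of a type and less RNA per cell cannot be told apart.

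The proteasome degrades proteins tagged with ubiquitin chains and is the main route of regulated protein turnover in heart muscle. Its 20S core is a barrel of alpha rings, which gate entry, and beta rings, which hold the catalytic sites. The 19S regulatory particle caps the barrel, with a base of ATPases that unfold the substrate and a lid that removes ubiquitin. Other caps, such as the 11S and PA200 activators, open the core without ATP, and dedicated chaperones assemble both particles.

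Most proteasome genes had lower signals in rhTM hearts, but only Psmd11 passed the test. Of 46 genes, 1 was called lower (2.17%, against 2.41% of all genes tested) and 0 were called higher (against 2.75% of all genes), by limma at an adjusted p under 0.05. The called share was thus near the background. Without saline 3, limma called 17 members lower and 5 higher (against 19.1% and 20.5% of all genes). In that setting the groups were on separate slides, so treatment and slide cannot be told apart. Without rhTM 1, rhTM 2, saline 1 or saline 2 it called 0. At an unadjusted p under 0.05, 10 members were lower and 1 was higher, or 21.7% and 2.17%, against 15.6% and 15.1% of all genes. The fitted change was below 0 for 35 of 46 members (76.1%), against 49.2% of all genes, and for 30 of 46 with normexp background correction or with each array centred on its median. Its median was -0.28 over the members and 0.014 over all genes tested. Every rhTM array lay below every saline array for 14 members (30.4%, against 18.7% of all genes) and above every saline array for 1 member (2.17%, against 17.0%).

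The position of saline 3 divided the members further. Saline 1 and 2 both lay above all arrays of slide 2 for 23 of 46 members (against 25.0% of all genes), and both lay below them for 10 (21.7%, against 25.2%). Within slide 2, all rhTM arrays lay below saline 3 for 23 of 46 members (against 37.2% of all genes) and above it for 3 (6.52%, against 37.1%). The median within-slide change was -0.22, and 37 of 46 members were lower (80.4%, against 50.2% of all genes). Both changes share the rhTM arrays and saline 3. Blocked on the slide, limma called 0 of 46 members, against 3.83% of all genes called higher and 1.95% called lower, and 4 members were lower at an unadjusted p under 0.05 (8.70%, against 14.5% of all genes).

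**Figure D1:**
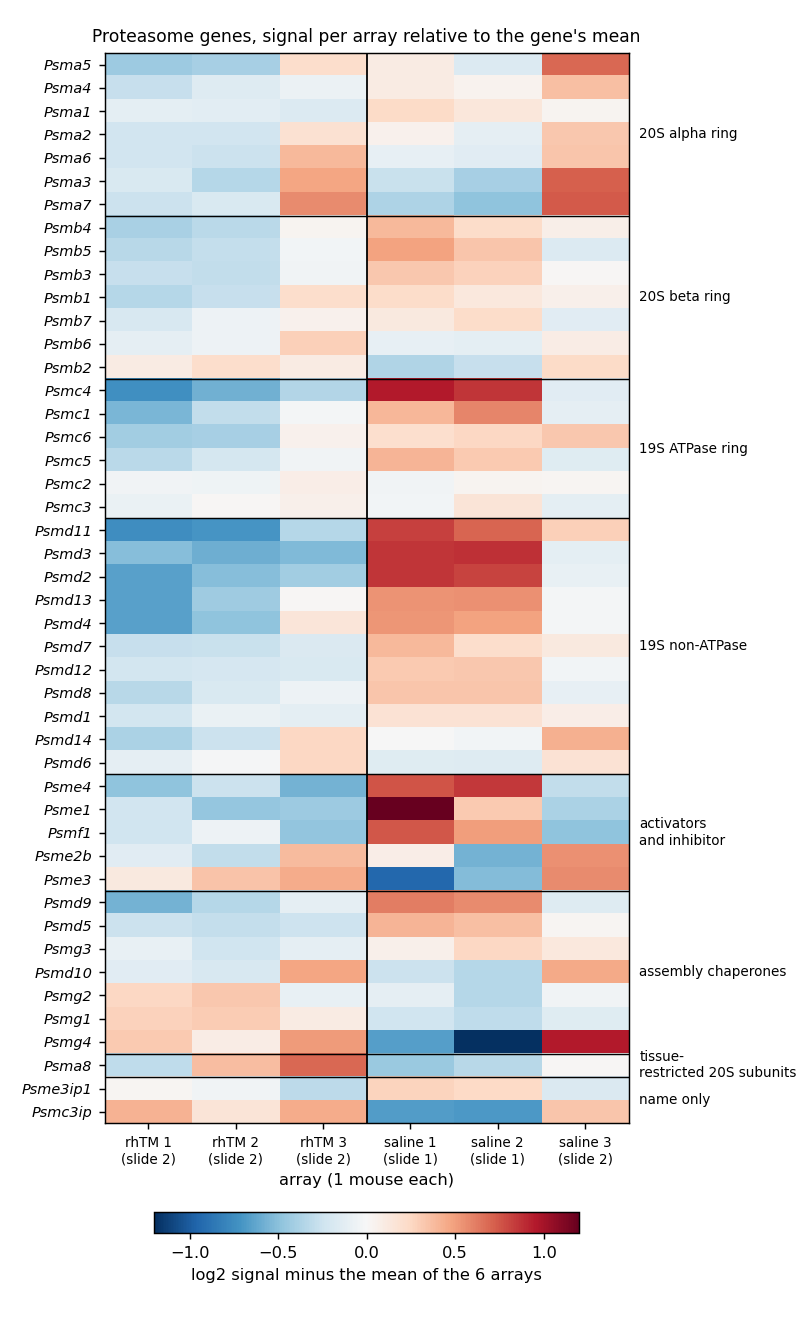
Signal of each tested proteasome gene (rows, grouped by class) on each array (columns, 1 mouse each), as log2 signal minus the gene's mean over the 6 arrays. Several 19S genes, among them Psmc4, Psmd3 and Psmd2, are highest in saline 1 and 2, and most alpha-ring genes are highest in rhTM 3 and saline 3.

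The 4 members with the lowest fitted change, Psmd11, Psmc4, Psmd3 and Psmd2, all belong to the 19S regulatory particle. Of its 17 genes named Psmc or Psmd that are subunits, 16 had a change below 0, with a median of -0.48 and a within-slide median of -0.31. Averaged over these genes, the log2 signal was 4.13, 4.23 and 4.45 in rhTM 1, 2 and 3, against 4.92, 4.92 and 4.57 in saline 1, 2 and 3. All rhTM arrays were below all saline arrays, and saline 3 was nearer to rhTM 3 than to saline 1 and 2.

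Psmd11, the lid subunit also called Rpn6 that clamps the regulatory particle to the core, had signals of 1.59, 1.62 and 1.98 in rhTM 1, 2 and 3, against 3.15, 3.03 and 2.61 in saline 1, 2 and 3. The groups did not overlap, and saline 3 was the lowest saline heart. The change was -1.20 ± 0.23, a 2.29-fold lower signal, and Psmd11 fell with rhTM at an adjusted p of 0.0428 (limma, Benjamini-Hochberg). Its within-slide change was -0.88, and the limma fit blocked on the slide gave an adjusted p of 0.0782. The fit blocked on the replicate number gave a limma adjusted p of 0.0642. The call was also lost when rhTM 1, rhTM 2, saline 1 or saline 2 was left out, with limma adjusted p-values of 0.192, 0.209, 0.158 and 0.119. Psmd11 was read by 1 probe. The window of 300 bases around its start, from 250 before to 50 after it, is shown because this was the called member. It runs at chr11:80428365-80428664 on the plus strand, taken from RefSeq on build GRCm38.p6 and written 5′ to 3′.
Psmd11: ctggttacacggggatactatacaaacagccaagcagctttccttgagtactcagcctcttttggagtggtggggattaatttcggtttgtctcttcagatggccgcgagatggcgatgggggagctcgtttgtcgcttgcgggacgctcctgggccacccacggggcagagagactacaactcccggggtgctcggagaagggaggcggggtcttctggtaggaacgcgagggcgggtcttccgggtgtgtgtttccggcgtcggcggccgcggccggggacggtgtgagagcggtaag
It held neither TGACNNNGC, the core of the antioxidant response element through which NRF1 and NRF2 act, nor the CCAAT box.

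The lid scaffold Psmd3 (Rpn3) had signals of 4.85, 4.77 and 4.82 in rhTM 1, 2 and 3, against 6.22, 6.24 and 5.24 in saline 1, 2 and 3. Its change of -1.08 ± 0.30 did not pass the test (limma adjusted p = 0.0819). Psmd2 (Rpn1), the base scaffold on which shuttle receptors dock, had 3.67, 3.81 and 3.91 in rhTM 1, 2 and 3, against 5.18, 5.13 and 4.24 in saline 1, 2 and 3, a change of -1.05 ± 0.29 (limma adjusted p = 0.0812). Neither gene's groups overlapped, and for both genes saline 3 lay closer to the rhTM hearts than to the other saline hearts. Their within-slide changes were -0.42 and -0.44, and second probes gave -1.26 for Psmd3 and -0.91 for Psmd2. Within slide 2 those second probes gave -0.26 for Psmd3 and -0.046 for Psmd2.

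Psmd4 (Rpn10), a receptor for ubiquitin chains in the base, had 4.84, 5.004 and 5.63 in rhTM 1, 2 and 3, against 6.02, 5.97 and 5.47 in saline 1, 2 and 3. Its groups overlapped, since rhTM 3 was above saline 3, and the change was -0.66 ± 0.28 (limma adjusted p = 0.172), with -0.31 within slide 2. Psmd14 (Rpn11), the deubiquitinase of the lid, had 3.47, 3.59 and 4.09 in rhTM 1, 2 and 3, against 3.85, 3.81 and 4.27 in saline 1, 2 and 3. Its change was -0.26 ± 0.25 (limma adjusted p = 0.494), with -0.56 within slide 2, and rhTM 3 and saline 3 were the highest hearts of their groups. Psmd6 (Rpn7) had the smallest change of the non-ATPase subunits, 0.088 ± 0.20, with signals of 4.36 to 4.72 in rhTM hearts, against 4.32 to 4.64 in saline hearts. Its 2 other probes gave changes of -0.30 and -0.21, so its direction depended on the probe, and within slide 2 all 3 probes were lower (-0.13, -0.11 and -0.21). Among the remaining non-ATPase genes, Psmd7, Psmd12 and Psmd1 were below saline on all rhTM arrays, and Psmd13 and Psmd8 were lower with overlap.

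In the ATPase ring all 6 genes had a change below 0, with a median of -0.45, but the within-slide median was -0.12. Psmc4 (Rpt3) had the largest change, with signals of 3.03, 3.19 and 3.41 in rhTM 1, 2 and 3, against 4.71, 4.62 and 3.63 in saline 1, 2 and 3. Its groups did not overlap, although saline 3 was much nearer to the rhTM hearts than to saline 1 and 2. The change was -1.11 ± 0.33 (limma adjusted p = 0.0894), and the within-slide change was -0.42. A second probe gave -0.97 over all arrays and -0.38 within slide 2. Psmc3 (Rpt5), at 6.73 to 6.87 in rhTM hearts, against 6.70 to 6.96 in saline hearts, had a change of -0.0077 ± 0.17 (limma adjusted p = 0.979), and its sign turned within slide 2, to 0.11, and with normexp, to 0.047. Other Psmc3 probes gave -0.28 and -0.22 over all arrays, and 0.37 and 0.27 within slide 2. Psmc6 was lower by a similar size over all arrays and within slide 2, at -0.51 and -0.58, and its groups did not overlap.

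**Figure D2:**
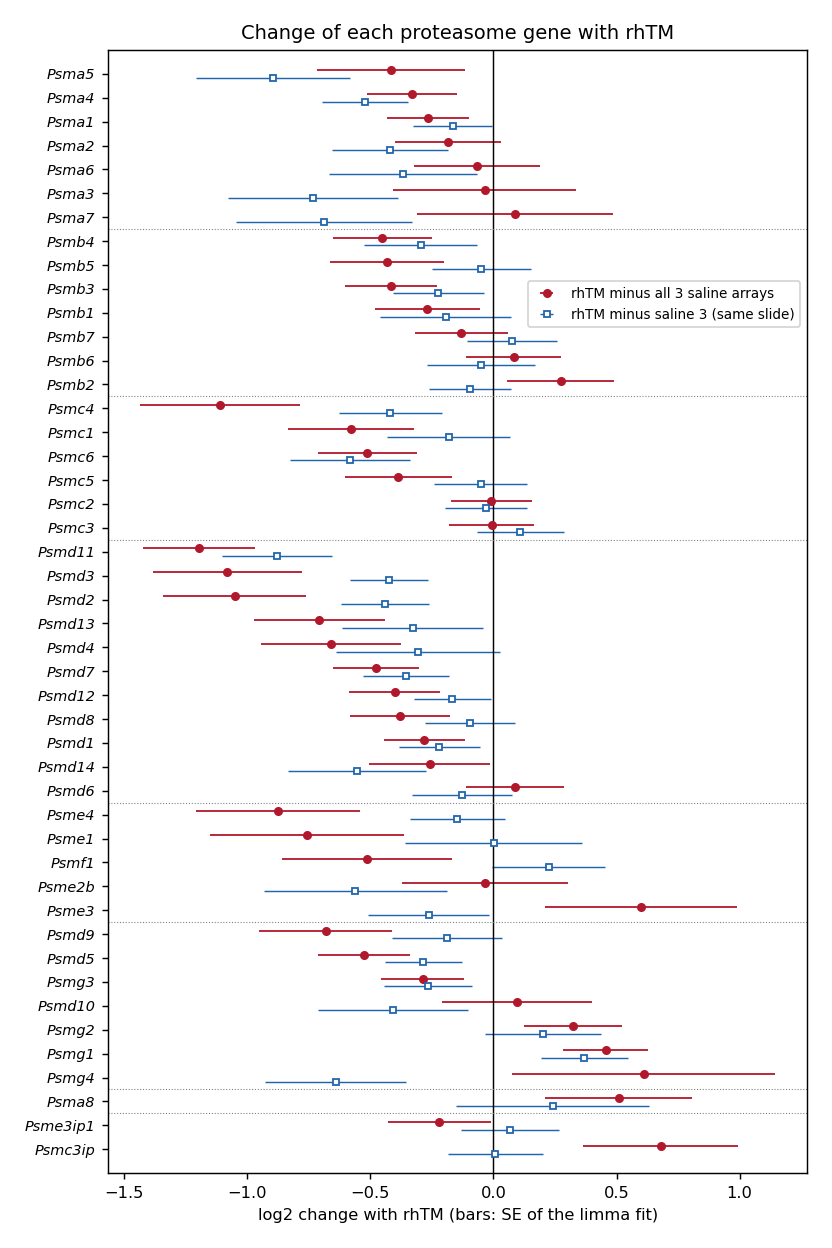
Change of each tested gene with rhTM on the log2 scale (circles: rhTM minus all 3 saline arrays; squares: rhTM minus saline 3 on the same slide; bars: SE of the limma fit; dotted lines part the classes). For Psmc4, Psmd3 and Psmd2 the squares lie nearer to 0 than the circles, and for Psma5, Psma3 and Psma7 they lie farther to the left.

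In the 20S core the averages overlapped between groups. Averaged over its 14 genes, the log2 signal was 4.85, 4.89 and 5.24 in rhTM 1, 2 and 3, against 5.14, 5.06 and 5.32 in saline 1, 2 and 3. Its median change was -0.23 and its within-slide median was -0.26, and 11 of 14 genes were lower. The 19S average minus the 20S average was -0.72, -0.66 and -0.79 in rhTM 1, 2 and 3, against -0.22, -0.14 and -0.75 in saline 1, 2 and 3. In this difference saline 3 lay among the rhTM hearts, and saline 1 and 2 stood apart from all arrays of slide 2.

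In the alpha ring, 6 of 7 genes had a change below 0 over all arrays and 7 of 7 within slide 2, with medians of -0.19 and -0.52. For 5 of the 7, rhTM 3 and saline 3 were the highest hearts of all (against 14.1% of all genes tested). Psma5 had the largest change of the ring, with signals of 4.39, 4.43 and 5.04 in rhTM 1, 2 and 3, against 4.93, 4.67 and 5.52 in saline 1, 2 and 3. Its change was -0.42 ± 0.30 (limma adjusted p = 0.367), and its within-slide change was -0.90. Psma3 had 5.75, 5.59 and 6.41 in rhTM 1, 2 and 3, against 5.67, 5.54 and 6.65 in saline 1, 2 and 3. Its change over all arrays was -0.035 ± 0.37 (limma adjusted p = 0.957), while the within-slide change was -0.73. Psma7, the one gene of the ring with a change above 0 (0.086 ± 0.40), had -0.69 within slide 2. Its rhTM 3 and saline 3 signals were also well above those of the other hearts of their groups.

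Of 8 neutrophil markers 7 were tested, and 5 of these were also highest in rhTM 3 and saline 3. The exceptions were Cd177, higher in every saline heart than in rhTM 3, and Csf3r, highest in rhTM 1. Over the 7 genes the mean log2 signal was -1.37, -2.03 and 2.51 in rhTM 1, 2 and 3, against 1.39, 2.23 and 4.05 in saline 1, 2 and 3. Their summed signal, in multiples of the 75th percentile, was 84.9 to 485.8 in rhTM hearts and 134.9 to 1034 in saline hearts. Cd177 was well above background on 0 rhTM arrays, and Ly6g was not analysed here. Cardiomyocyte markers were higher for 7 of 8 genes and summed to 2660 to 3710 in rhTM hearts and 1880 to 2608 in saline hearts. Without Myh6, the brightest, the sums were 1989 to 2904 in rhTM hearts and 1478 to 2074 in saline hearts, which overlap. Smooth muscle and pericyte markers were lower for 4 of 6 genes and summed to 50.4 to 58.2 in rhTM hearts and 89.3 to 138 in saline hearts. That gap rests on Acta2, the brightest gene, and without it the sums were 20.4 to 25.9 in rhTM hearts and 18.9 to 24.0 in saline hearts. Other Acta2 probes gave changes of 0.28 and -1.44. Of that list, Acta2 and Pdgfrb were called lower and Rgs5 was called higher, and these calls were lost when blocked on the slide. The cardiomyocyte marker Pln was called higher, at 1.35 ± 0.28 (limma adjusted p = 0.0478). Cd177 was called lower, at -3.44 ± 0.43 (limma adjusted p = 0.0212), and was tested only through its saline arrays. These 2 calls stayed when blocked on the slide, but without rhTM 1 limma called 0 of all genes. Endothelial markers were lower for 5 of 7 genes and summed to 81.1 to 90.4 in rhTM hearts and 92.9 to 109 in saline hearts. Without Egfl7, the brightest, the sums were 22.2 to 29.8 in rhTM hearts and 22.7 to 30.1 in saline hearts, which overlap. The part of these markers in the proteasome values was not tested.

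**Figure D3:**
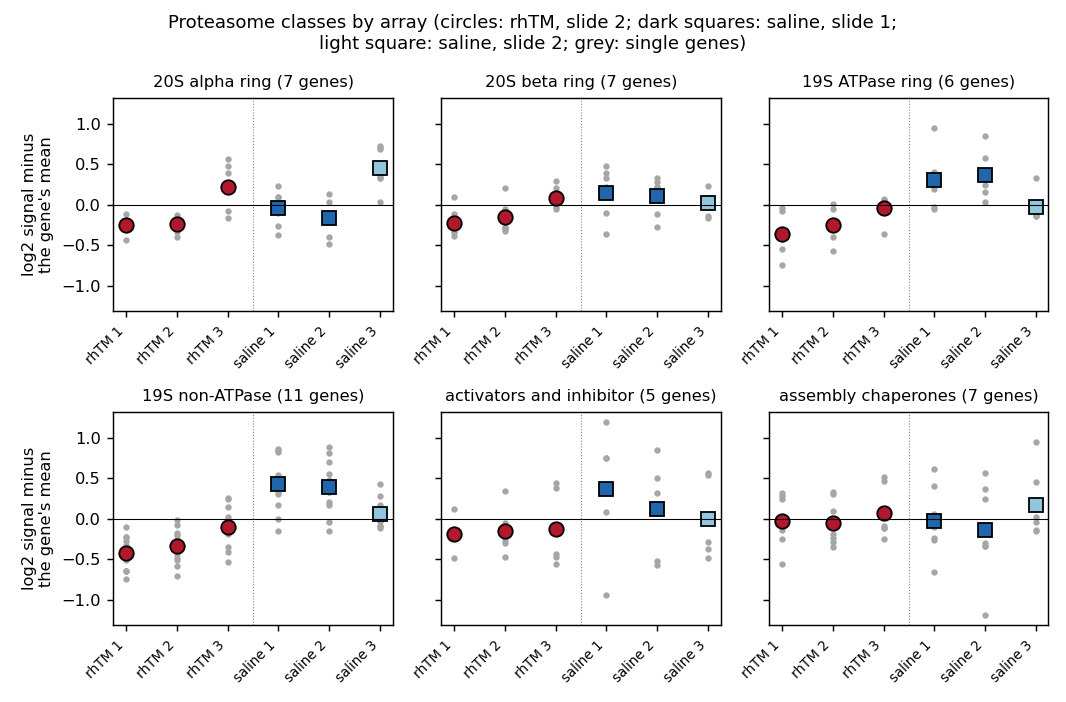
Log2 signal minus the gene's mean over the 6 arrays for the genes of 6 classes, by array (large symbols: mean of the class; grey points: single genes; circles: rhTM on slide 2; dark squares: saline on slide 1; light square: saline on slide 2). The 19S classes are highest in saline 1 and 2, and the alpha ring is highest in rhTM 3 and saline 3.

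Among the catalytic beta subunits, Psmb5 (chymotrypsin-like) had 3.94, 3.99 and 4.24 in rhTM 1, 2 and 3, against 4.76, 4.61 and 4.11 in saline 1, 2 and 3. Its change was -0.43 ± 0.23 (limma adjusted p = 0.249), with -0.049 within slide 2, and rhTM 3 lay above saline 3. Psmb6 (caspase-like) had 6.35 to 6.75 in rhTM hearts, against 6.35 to 6.55 in saline hearts, a change of 0.082 ± 0.19 (limma adjusted p = 0.797). Its other probe gave -0.38, and its sign turned with quantile normalization, to -0.065, and within slide 2, to -0.050, so no direction is given. Psmb7 (trypsin-like) had 3.89 to 4.14 in rhTM hearts, against 3.94 to 4.30 in saline hearts, a change of -0.13 ± 0.19 (limma adjusted p = 0.657), and its within-slide change was 0.074. The structural subunit Psmb4 had the largest change of the ring, -0.45 ± 0.20 (limma adjusted p = 0.184), with signals of 5.66 to 6.08 in rhTM hearts, against 6.12 to 6.44 in saline hearts. Its groups did not overlap, and the within-slide change was -0.30.

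Psmb5 and Psmb6 were 2 of the 6 members whose promoter window held TGACNNNGC on either strand, with Psmc6, Psmd12, Psmd9 and Psme4. Of the tested members, 38 had such a window in the RefSeq table. The motif was in 6 of their 41 windows (14.6%), against 12.4% of all 32851 windows of that length. CCAAT was in 14 of 41 (34.1%), against 37.4% of all windows. The windows of both catalytic genes and of Psme4 are shown as examples with a match within 50 bases of the start, and capitals mark the match. They run at chr14:54617946-54618245 (minus strand) for Psmb5, chr11:70525107-70525406 (plus strand) for Psmb6 and chr11:30771525-30771824 (plus strand) for Psme4, on GRCm38.p6.
Psmb5: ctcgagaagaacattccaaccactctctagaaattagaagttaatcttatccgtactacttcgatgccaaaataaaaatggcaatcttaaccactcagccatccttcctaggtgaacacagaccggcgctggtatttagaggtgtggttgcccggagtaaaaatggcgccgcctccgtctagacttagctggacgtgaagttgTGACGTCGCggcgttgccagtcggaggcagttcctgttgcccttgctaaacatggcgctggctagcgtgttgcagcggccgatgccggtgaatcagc
Psmb6: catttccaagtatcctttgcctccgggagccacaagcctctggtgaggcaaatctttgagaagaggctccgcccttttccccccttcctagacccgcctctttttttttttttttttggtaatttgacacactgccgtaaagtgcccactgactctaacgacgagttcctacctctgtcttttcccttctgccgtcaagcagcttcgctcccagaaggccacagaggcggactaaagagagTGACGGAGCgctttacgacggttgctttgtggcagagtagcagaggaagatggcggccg
Psme4: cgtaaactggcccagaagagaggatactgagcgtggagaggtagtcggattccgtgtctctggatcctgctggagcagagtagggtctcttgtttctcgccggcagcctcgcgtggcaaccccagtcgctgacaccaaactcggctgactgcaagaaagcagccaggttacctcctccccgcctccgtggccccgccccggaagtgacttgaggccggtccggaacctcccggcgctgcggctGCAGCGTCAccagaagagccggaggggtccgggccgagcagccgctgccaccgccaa
The matches begin 47, 9 and 7 bases before the start, and that of Psme4 is on the opposite strand. The 6 genes with the motif had a median change of -0.47 and a within-slide median of -0.16. The 32 genes without it had -0.28 and -0.29. A match is a description of these letters and not a binding site.

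Of the activators and the inhibitor, Psme4 (PA200), a cap linked to histone breakdown, had signals of 3.97, 4.19 and 3.89 in rhTM 1, 2 and 3, against 5.21, 5.30 and 4.16 in saline 1, 2 and 3. The groups overlapped at saline 3, and the change was -0.88 ± 0.33 (limma adjusted p = 0.14), against -0.15 within slide 2. Its second probe gave -0.24 over all arrays and turned to 0.64 within slide 2. Psme1 (PA28 alpha), an interferon-inducible subunit of the 11S cap, had 4.49, 4.25 and 4.28 in rhTM 1, 2 and 3, against 5.92, 5.04 and 4.34 in saline 1, 2 and 3. Saline 1 stood highest, the change was -0.76 ± 0.39 (limma adjusted p = 0.236), and the within-slide change was 0.00045. Psme3 (PA28 gamma), the nuclear 11S form, had 1.65, 1.88 and 1.98 in rhTM 1, 2 and 3, against 0.60, 1.02 and 2.10 in saline 1, 2 and 3. Its change was 0.60 ± 0.39 (limma adjusted p = 0.324), and it turned to -0.26 within slide 2. Psme2b had -0.036 ± 0.34 (limma adjusted p = 0.951), with -0.56 within slide 2. Psmf1 (PI31), which binds the core and inhibits it in vitro, had -0.046, 0.13 and -0.28 in rhTM 1, 2 and 3, against 0.94, 0.70 and -0.29 in saline 1, 2 and 3. Its change of -0.51 ± 0.35 (limma adjusted p = 0.336) turned to 0.22 within slide 2. By a second Psmf1 probe it was -1.07 over all arrays and -0.29 within slide 2, without a turn.

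Of the assembly chaperones, 3 of the 4 for the 20S core (Psmg1, Psmg2, Psmg3 and Psmg4) were higher, with a median change of 0.39 over all arrays and -0.033 within slide 2. Of the 3 for the 19S particle (Psmd5, Psmd9 and Psmd10), 2 were lower, with medians of -0.53 and -0.28. Psmg1 (PAC1), which with Psmg2 (PAC2) guides the alpha ring together, had signals of 3.87, 3.89 and 3.69 in rhTM 1, 2 and 3, against 3.35, 3.28 and 3.45 in saline 1, 2 and 3. It was the one member with every rhTM heart above every saline heart, and saline 3 was the highest saline heart. Its change was 0.46 ± 0.17 (limma adjusted p = 0.137), with 0.37 within slide 2. A second probe gave 0.51 over all arrays and 0.33 within slide 2. Psmg2 had 2.42 to 2.84 in rhTM hearts, against 2.17 to 2.47 in saline hearts, a change of 0.32 ± 0.20 (limma adjusted p = 0.303), with 0.20 within slide 2. Psmg4 (PAC4) had 1.67, 1.45 and 1.87 in rhTM 1, 2 and 3, against 0.69, 0.16 and 2.31 in saline 1, 2 and 3. Its spread among saline hearts exceeded its change of 0.61 ± 0.54, which was -0.64 within slide 2. Psmd9, a chaperone of the ATPase ring, had -0.24 to 0.21 in rhTM hearts, against 0.17 to 0.94 in saline hearts, a change of -0.68 ± 0.27 (limma adjusted p = 0.149), with -0.19 within slide 2. Psmd10 (gankyrin), another chaperone of that ring, had 0.096 ± 0.30 over all arrays and -0.41 within slide 2.

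Psmc3ip, a meiotic recombination factor, had the highest fitted change, 0.68 ± 0.32 (limma adjusted p = 0.195), which was 0.0079 within slide 2. Psme3ip1, a partner of PA28 gamma, had -0.22 ± 0.21, with 0.067 within slide 2. The testis subunit Psma8 had 0.51 ± 0.30, with 0.24 within slide 2. Without these 3 genes the median over 43 members was -0.33, and within slide 2 it was -0.26.

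**Figure D4:**
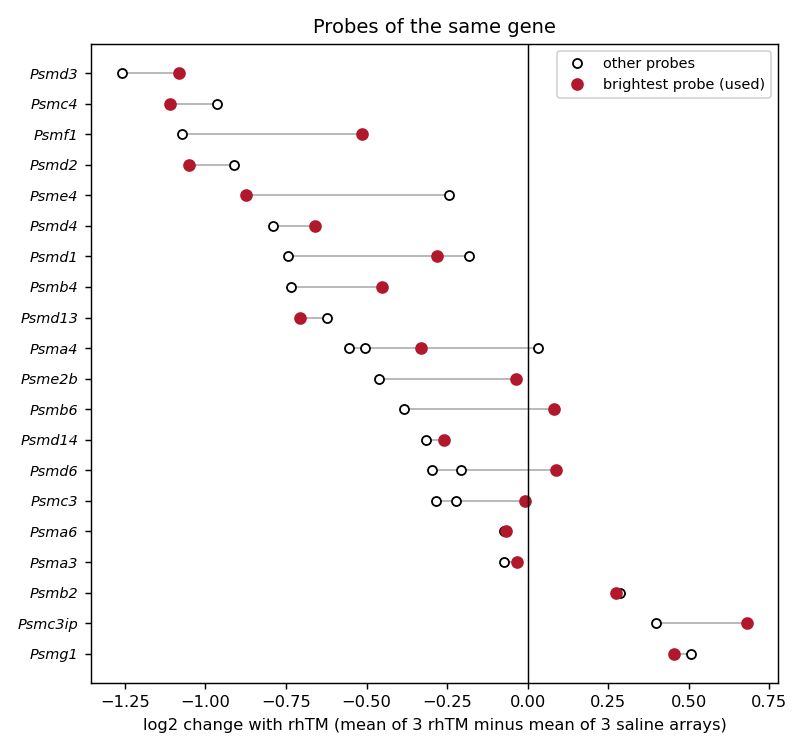
Change with rhTM (log2, mean of 3 rhTM arrays minus mean of 3 saline arrays) for every probe of the 20 tested genes that 2 or more probes read well above background (filled: brightest probe, used for the gene; open: other probes). The probes of Psmd3, Psmc4 and Psmd2 lie together, and those of Psma4, Psmb6 and Psmd6 fall on both sides of 0.

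Of the 20 members read by several probes, 14 were lower and 3 were higher by every probe, and 3 had probes on both sides of 0. The median distance between the lowest and the highest change of a gene's probes was 0.23.

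The genes that feed the proteasome were read from the same fit. Of 9 genes for p97, the ATPase that extracts ubiquitinated proteins, and its cofactors, 8 were lower (against 49.2% of all genes tested). The 1 called lower (against 2.41% of all genes) was Ubxn4, a cofactor in breakdown of proteins from the endoplasmic reticulum. Ubxn4 had 1.60, 1.69 and 1.63 in rhTM 1, 2 and 3, against 3.05, 2.86 and 2.59 in saline 1, 2 and 3. No saline heart came near the rhTM hearts, and the change was -1.20 ± 0.19 (limma adjusted p = 0.033), with -0.96 within slide 2 (limma adjusted p = 0.0441 when blocked on the slide). Vcp, which encodes p97, had -0.99 ± 0.30 (limma adjusted p = 0.0925), against -0.38 within slide 2. Nploc4, its adaptor for ubiquitin chains, had -1.10 ± 0.32 (limma adjusted p = 0.0869), against -0.41 within slide 2. The higher gene of the list was Ubxn7, at 0.57 ± 0.18 (limma adjusted p = 0.1) and 0.45 within slide 2. Some cofactors that were lower over all arrays were above 0 within slide 2. The call of Ubxn4, like those of Ubqln1, a shuttle receptor, and Mafk, a small Maf protein, was lost when rhTM 1, rhTM 2, saline 1 or saline 2 was left out, with limma adjusted p-values up to 0.188 for Ubxn4, 0.214 for Ubqln1 and 0.209 for Mafk.

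Of 6 shuttle receptors tested, which carry ubiquitinated proteins to the proteasome, 5 were lower (against 49.2% of all genes). Only Ubqln1 was called lower (against 2.41% of all genes). Ubqln1 had 1.02, 1.08 and 1.31 in rhTM 1, 2 and 3, against 2.11, 1.98 and 2.36 in saline 1, 2 and 3. The groups were well apart and saline 3 was the highest heart. Ubqln1 fell by 1.01 ± 0.19 (limma adjusted p = 0.043), its second probe gave -1.40, and the within-slide change was -1.22 (limma adjusted p = 0.0360 when blocked on the slide). Blocked on the replicate number, its limma adjusted p was 0.0517. Rad23b had -0.53 ± 0.18 (limma adjusted p = 0.114), and Ddi2, the protease that cleaves NRF1, had -0.69 ± 0.22 (limma adjusted p = 0.104), and both had -0.62 within slide 2. Other Rad23b probes gave -1.01 and -0.062 over all arrays, and -0.32 and 0.019 within slide 2.

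Of 9 transcription factors of proteasome genes and their processing enzymes, 8 were lower (against 49.2% of all genes). Only Mafk was called lower (against 2.41% of all genes). Mafk, a small Maf partner with which NRF1 and NRF2 bind DNA, had 0.20, 0.45 and 0.75 in rhTM 1, 2 and 3, against 1.73, 1.42 and 1.71 in saline 1, 2 and 3. The groups did not overlap, and the change was -1.16 ± 0.22 (limma adjusted p = 0.0427), with -1.24 within slide 2. Blocking on the slide gave a limma adjusted p of 0.0606, and blocking on the replicate number gave 0.0552. Nfe2l2 (NRF2) had 2.56, 2.64 and 2.59 in rhTM 1, 2 and 3, against 3.52, 3.12 and 3.72 in saline 1, 2 and 3. All rhTM hearts were below all saline hearts, and its change of -0.86 ± 0.21 missed the threshold over all arrays (limma adjusted p = 0.0659) and passed it when blocked on the slide (-1.12, limma adjusted p = 0.0484). Nfe2l1 (NRF1), the main activator of proteasome genes when the proteasome is inhibited, had -0.18 ± 0.21 (limma adjusted p = 0.566), with -0.017 within slide 2. Its size depended on the probe, since another gave -0.80 over all arrays and -0.15 within slide 2.

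In the other 6 lists, limma called 0 of 21 genes tested (against 2.75% of all genes called higher and 2.41% called lower). At an unadjusted limma p under 0.05, 5 were lower and 1 higher (against 15.6% and 15.1% of all genes). The change was below 0 for 13 of the 21 (against 49.2% of all genes). Of the ubiquitin genes reported here 2 of 3 were lower, with Rps27a, a fusion of ubiquitin to a ribosomal protein, at 0.027 ± 0.44 (limma adjusted p = 0.971). Its sign turned within slide 2, to -0.82. Of the ubiquitin-activating enzymes 2 of 2 were lower, with Uba1 at -0.82 ± 0.22 (limma adjusted p = 0.0743) and -0.48 within slide 2. Of 5 assembly factors outside the Psm names 4 were lower, with Ipo9, an importer of proteasomes into the nucleus, at -0.70 ± 0.17 (limma adjusted p = 0.0636) and Pomp, the chaperone of beta rings, at -0.16 ± 0.19. Within slide 2 they were at -0.70 and -0.29. Other probes gave -0.018 for Ipo9 and 0.24 for Pomp over all arrays, and -0.092 and -0.16 within slide 2. Of 6 proteasome-bound deubiquitinases and ligases 3 were lower, with Usp14 at -0.74 ± 0.23 (limma adjusted p = 0.101) and -0.32 within slide 2. The 19S subunits Adrm1 (Rpn13) and Sem1, whose symbols lie outside the rule, had 0.58 ± 0.20 and 0.47 ± 0.27, with 0.73 and -0.080 within slide 2. A second probe of Adrm1 gave -1.08 over all arrays and -0.31 within slide 2.

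The immunoproteasome subunits replace the catalytic beta subunits under interferon. Psmb8 had 1.12, 1.00 and 1.97 in rhTM 1, 2 and 3, against 3.87, 2.45 and 1.84 in saline 1, 2 and 3. Saline 1 was far above the others and saline 3 was below rhTM 3, and the change was -1.36 ± 0.55 (limma adjusted p = 0.154), against -0.47 within slide 2. Psmb10 had -0.64 ± 0.37 and Psmb9 0.16 ± 0.31, with limma adjusted p-values of 0.27 and 0.752. Within slide 2 they were at -0.76 and 0.60.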

How the data were processed

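Agilent 1-colour arrays were hybridised with Cy3-labelled cRNA of mouse hearts, 1 array per mouse, and groups were assigned from the sample titles. The scanner files hold spot intensity values as the authors deposited them, background-corrected by Agilent Feature Extraction 10.7.3.1 per the file headers (9.1 per the submitters' processing notes) with no normalization between arrays. A value table that the authors deposited as log2 has a baseline that differs between slides (SD 0.825) but not within them (at most 1.89e-05). Its column medians were -0.08, 0.03 and 0.09 for rhTM 1, 2 and 3 and -0.02, -0.16 and 0.10 for saline 1, 2 and 3, and its centring is not given in the sources used here. It served only as an alternative.

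Of 59305 spots per array besides controls, 54.8% to 62.8% passed the scanner software's test against background, and 0 spots reached saturation. The number of arrays limits the precision. Here, the processed signal was put on a log2 scale, the 75th percentile of each array was subtracted, and spots of a probe were averaged. Outlier flags removed 368 of 56605 probes. Probes were named by accession in a RefSeq table of GRCm38.p6, which matched 32789 of 56237. The brightest probe stood for each gene, and genes well above background on all 3 arrays of a group were tested. The test was limma's (version 3.58.1, R 4.3.3), lmFit then eBayes, with Benjamini-Hochberg adjustment over 14701 genes and calls at an adjusted p under 0.05. The code was tested on simulated data. The normexp alternative (offset 50) used the median spot signal, since the files hold no mean signal.

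The members and gene lists were chosen with earlier results of these data known. Values are given in full for called members, the 6 largest changes each way, the largest and smallest change of each class, the catalytic, receptor and activator genes, and up to 3 genes by p of each pathway list. Of the ubiquitin list, 1 gene is not reported here. Both groups use the replicate numbers 1 to 3. Across genes, the deviations from the group mean of arrays with the same number correlated at 0.319, 0.235 and 0.372, so the number was used as a block where it changed a call. The numbers come from the titles, which name 6 mice and give no litter or day, and rhTM 2 correlated more with saline 1 (0.314) than with saline 2. Slide and scan date cannot be told apart. Whether the mice were handled on separate days is not stated, so p-values measure the spread between these mice. In the fit without a block, that spread also holds the difference between slides among the saline arrays.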

Additional observations from a re-analysis of the deposited data

How the results depend on the processing

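Of 46 proteasome genes, 1 was called, and limma called 1 as well with normexp, quantile normalization, median centring, probes well above background on all 6 arrays, or the mean of a gene's probes. It called 0 with no filter on dim probes, when blocked on the slide and under the replicate block, where 7, 4 and 8 members were lower at an unadjusted p under 0.05 (14.9%, 8.70% and 17.4%, against 9.09%, 14.5% and 17.7% of all genes) and 0, 0 and 1 higher (against 11.2%, 16.3% and 18.4%). The deposited value table, whose baseline differs between slides, gave 14 (30.4%, against 30.7% of all genes) and a median of -0.46. Array weights gave 33 (71.7%, against 62.9% of all genes), and the weight was lowest for saline 3 (0.0915). With that weight, rhTM was set mostly against saline 1 and 2 on the other slide. Without saline 3 it was set only against them, so treatment and slide cannot be told apart. Leaving out each array gave 0 to 22 calls (22 without saline 3, and 0 without rhTM 1, rhTM 2, saline 1 or saline 2, where 4 members each, or 8.70%, were lower, against 8.94%, 8.58%, 9.88% and 10.8% of all genes, and at most 1 higher at an unadjusted p under 0.05), and the median of -0.28 ranged from -0.39 to -0.27. Under the other settings the median lay between -0.33 and -0.20. Over all genes, 760 were called (405 higher), against 751 with median centring, where 483 were higher (64.3%, against 53.3%). Normexp gave 412, no filter on dim probes 151, the deposited values 4519 and array weights 9244, and leaving out each array gave 0 to 5815 (0 without rhTM 1, where 1271 were higher and 1314 lower at an unadjusted p under 0.05, 2 without rhTM 2 or saline 1, 58 without saline 2 and 5815 without saline 3). The blocks changed no other call of a named member or pathway gene than those given with the genes. Psmd11, Ubxn4, Ubqln1 and Mafk also missed the threshold with no filter on dim probes, and Ubqln1 with median centring (limma adjusted p = 0.0515).

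Several changes turned their sign, among them Psme1, Psmg4, Psme3, Adrm1 and Psmf1, whose size over all arrays exceeded 0.5, and the cause was not tested. With the slide as a block these were Psmb6 (-0.050), Psmb7 (0.074), Psmc3 (0.11), Psmd10 (-0.41), Psmd6 (-0.13), Psme1 (0.00045), Psme3 (-0.26), Psme3ip1 (0.067), Psmf1 (0.22), Psmg4 (-0.64), Sem1 (-0.080) and Rps27a (-0.82). In the deposited table they were Psmb6 (-0.24), Psmd10 (-0.50), Psmd6 (-0.39), Psme3 (-0.0026), Psmg4 (-0.21), Ube3a (-0.057) and Rps27a (-0.76). With the mean of probes they were Adrm1 (-0.25), Pomp (0.037), Psmb6 (-0.15) and Psmd6 (-0.14). With normexp they were Psma3 (0.061), Psmc3 (0.047) and Psme2b (0.038), and with median centring Psma3 (0.046), Psmc3 (0.073) and Psme2b (0.045). With quantile normalization they were Psmb6 (-0.065) and Rps27a (-0.25), and with array weights Psmb9 (-0.32). Leaving out each array turned Psma3 (-0.28 to 0.31), Psmb6 (-0.043 to 0.16), Psmb9 (-0.091 to 0.32), Psmc3 (-0.066 to 0.067), Psmd10 (-0.12 to 0.35), Psmd6 (-0.015 to 0.19), Psme2b (-0.33 to 0.23), Rps27a (-0.27 to 0.45) and Uba6 (-0.28 to 0.017).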
